A study of Homo sapiens with 6 samples.

Results

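The 10 genes described here encode the hypoxia-inducible factors (HIF) and the proteins that tie them to oxygen. They are the HIF alpha subunit genes HIF1A, EPAS1 and HIF3A, the beta subunit genes ARNT and ARNT2, the prolyl hydroxylase genes EGLN1, EGLN2 and EGLN3, the ubiquitin ligase gene VHL and the asparaginyl hydroxylase gene HIF1AN. They were chosen by symbol, and every probe set annotated to exactly 1 of these symbols was kept as a separate measurement. This gave 31 probe sets for 10 genes, of 54613 probe sets and 19775 genes in all. The 2 probe sets annotated to EGLN2 together with RAB4B-EGLN2 were left out, 1 of them also naming RAB4B. RNA came from MM1S, an established human multiple myeloma cell line, with 3 arrays of cells in hypoxia and 3 of cells in normoxia. The treatment text names 24 h of hypoxia and is the same on all 6 arrays, so the condition label set the groups. It names no oxygen concentration. Whether each array had its own culture is not stated in the labels, and the p-values therefore cover the spread between these 6 arrays alone, which may be technical.

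In oxygen, EGLN enzymes hydroxylate prolines of the HIF alpha proteins, the VHL protein binds the hydroxylated form, and its ubiquitin ligase marks it for destruction. HIF1AN hydroxylates an asparagine of the alpha subunit and thereby blocks its binding of the coactivators CBP and p300. When oxygen is short both reactions slow, the alpha subunit accumulates, pairs with ARNT and activates genes whose control regions carry a short core, ACGTG or GCGTG. EGLN1 and EGLN3 are themselves known targets of HIF, which makes part of the pathway a feedback loop. The main oxygen control of the alpha subunits acts on protein, which these arrays did not measure.

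In hypoxia EGLN1 and ARNT rose, the VHL probe set of higher intensity fell, and HIF1A differed by less than the spread between arrays. EGLN1 rose in 3 of its 4 probe sets, by 2.42 to 3.55 times on the log2(intensity + 16) scale, and ARNT in 4 of its 7, by 1.54 to 2.50 times. For VHL 1 of 2 probe sets fell, by 0.66 on the log2 scale, and for HIF1AN 1 of 3 rose, by 0.36. The 14 probe sets of EPAS1, HIF3A, ARNT2, EGLN2 and EGLN3 did not pass. In total 8 of the 31 probe sets rose, 1 fell and 22 did not pass in limma at a Benjamini-Hochberg adjusted p under 0.05. That is 29.0% past the threshold, against 30.7% of all probe sets tested. Pooled over both directions, the genes were thus not called more often than the array as a whole. By direction, 8 of the 31 rose and 1 fell, while higher calls made up 15.5% and lower calls 15.2% of all probe sets. The median change of the 31 probe sets was 0.18, and that of all probe sets was 0.017.

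**Figure D1:**
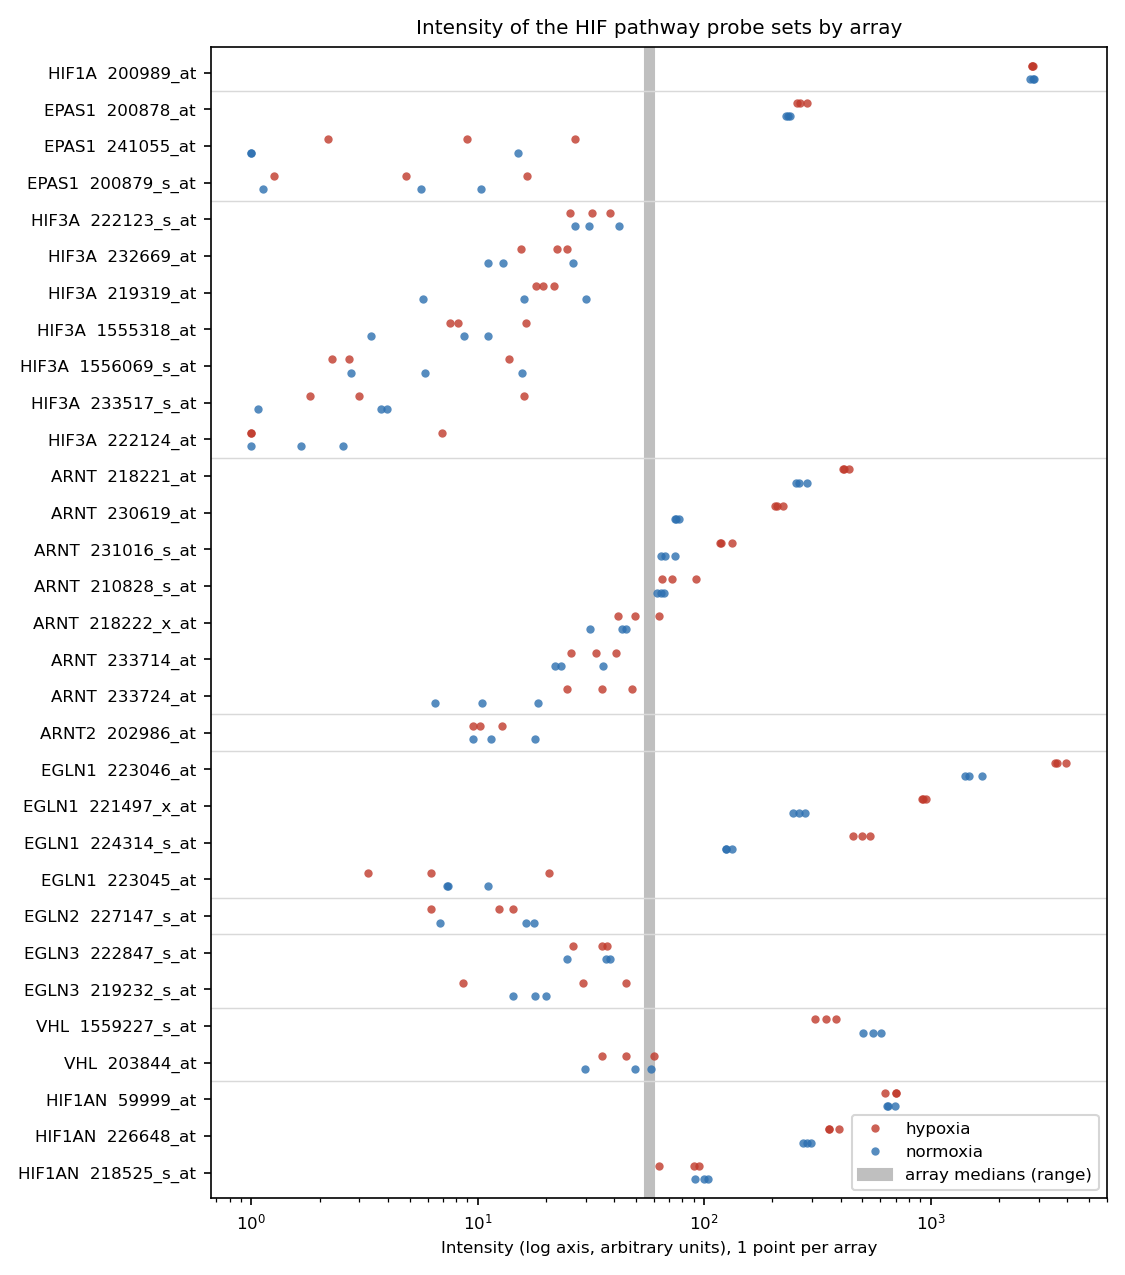
Intensity of each of the 31 probe sets on a log axis, with 1 point per array, hypoxia drawn over normoxia for each probe set, and the range of the array medians as a grey band. The 3 brighter EGLN1 probe sets and 3 of the brighter ARNT probe sets have every hypoxia array above every normoxia array, while the HIF3A, EGLN2 and EGLN3 points lie left of the band.

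Calls were more frequent among brighter probe sets. The medians of the 6 arrays were 54.95 to 60.13, and 16 of the 31 probe sets lay below the median on every array, where signal cannot be told from background because no detection calls were used here. Of the 13 probe sets at or above the median brightness over all arrays, 7 rose and 1 fell (61.5%), against 52.0% of all probe sets of that brightness (25.7% higher and 26.3% lower). Of the 18 dimmer ones 1 passed, against 9.44% of all dimmer probe sets. The hypoxia and normoxia arrays did not overlap for 10 of the 31 (32.3%), against 42.5% of all probe sets. Intensities of different probe sets are not set against each other, since each responds to its transcript with its own slope. In RNA from bulk cells, more transcript per cell and more cells with the transcript cannot be told apart.

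The markers of the labelled cell type were present. All 6 plasma cell marker genes (SDC1, CD38, TNFRSF17, PRDM1, XBP1 and IRF4) lay above every array median by their brightest probe set. The summed intensity of the brightest probe set of each was 32717 to 34726 in hypoxia and 32488 to 34189 in normoxia. Bright probe sets carry this sum, and those of XBP1 and TNFRSF17 differed in opposite directions without passing. That of SDC1 (201287_s_at) averaged 3126 in hypoxia and 3862 in normoxia and passed. XBP1 (200670_at) averaged 11291 in hypoxia and 9674 in normoxia, and TNFRSF17 (206641_at) 8526 in hypoxia and 9439 in normoxia. A change of a dimmer gene such as CD38 hardly shows in the sum. Single probe sets of the 6 genes moved both ways, with 2 of 12 higher and 3 lower: SDC1 fell by 0.73 in 201286_at and by 0.30 in 201287_s_at and CD38 by 0.71 in 205692_s_at, while PRDM1 rose by 0.45 in 217192_s_at and IRF4 by 0.65 in 216986_s_at, on the log2 scale. The summed intensity of the 3 endothelial markers was 92.7 to 146 in hypoxia and 83.5 to 103 in normoxia, and that of the 3 myeloid markers was 84.2 to 121 in hypoxia and 92.6 to 102 in normoxia. T cell markers summed to 205 to 248 in hypoxia and 195 to 267 in normoxia. The mature B cell markers MS4A1 and PAX5 summed to 337 to 388 in hypoxia and 328 to 334 in normoxia, but MS4A1 (228592_at) was at 58.1 to 77.7 in hypoxia and 245 to 248 in normoxia, and PAX5 (221969_at) at 279 to 319 in hypoxia and 83.4 to 88.1 in normoxia. The other PAX5 probe set, 206802_at, was at 1.33 to 6.80 in hypoxia and 2.91 to 4.86 in normoxia and did not pass. CD14, LYZ, LUM and CDH5 were at or under 21.4 on every array, but other markers were brighter. CD3D, CSF1R and COL1A1 lay above every array median by their brightest probe set. The myeloid marker CSF1R (203104_at) read 69.5 to 97.8 in hypoxia and 72.1 to 82.0 in normoxia. COL1A1 (217430_x_at) read 121 to 135 in hypoxia and 139 to 175 in normoxia. The T cell marker CD3D (213539_at) read 126 to 140 in hypoxia and 89.5 to 116 in normoxia, and passed (log2 change 0.38, limma adjusted p = 0.0485). The other T cell markers went the other way without passing, CD3E (205456_at) at a log2 change of -0.16 and CD2 (205831_at) at -0.43. The endothelial marker TEK read 50.3 to 82.3 in hypoxia and 36.5 to 43.95 in normoxia by 217711_at, and passed (log2 change 0.55, limma adjusted p = 0.0417). Its dimmer probe set 206702_at was at a log2 change of -0.28 and did not pass. The endothelial marker VWF did not pass in either probe set. Stromal markers summed to 162 to 222 in hypoxia and 212 to 252 in normoxia. Hypoxia replicate 2 stood apart in 3 probe sets of the collagen genes COL1A1 and COL1A2. COL1A1 read 265 there in 1556499_s_at, against 25.7 and 20.6 in the other hypoxia arrays and 8.93 to 24.7 in normoxia. It read 179.6 in 202310_s_at, against 20.2 and 21.4 in the other hypoxia arrays, and COL1A2 read 140.2 in 202404_s_at, against 31.7 and 30.2. The other probe sets of both genes showed no such gap on that array. COL1A1 read 16.15 there in 202311_s_at, against 17.8 and 36.3, and 7.84 in 202312_s_at, against 12.2 and 8.98. COL1A2 read 84.6 in 202403_s_at, against 65.6 and 36.7. Without that array the same 9 probe sets of the 10 genes passed. The beta-globin gene HBB, an erythroid marker, was at 1102 to 1156 in hypoxia and 1677 to 1898 in normoxia by probe set 211696_x_at. The part of these plasma cell and B cell markers, CD3D, CSF1R, TEK, COL1A1, COL1A2 and HBB in the results was not tested.

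The promoters of 3 of the genes are shown because their transcripts behaved differently: EGLN1 and ARNT rose and HIF1A differed by less than the spread between arrays. Each is the RefSeq window of GRCh38.p14 from 250 bases before to 50 bases after an annotated start, on the gene's strand, 5′ to 3′. Capitals mark matches to the core letters ACGTG or GCGTG, searched on both strands. The windows lie at chr1:231422238-231422537 (minus strand) for EGLN1, chr1:150876550-150876849 (minus strand) for ARNT and chr14:61695263-61695562 (plus strand) for HIF1A.
EGLN1: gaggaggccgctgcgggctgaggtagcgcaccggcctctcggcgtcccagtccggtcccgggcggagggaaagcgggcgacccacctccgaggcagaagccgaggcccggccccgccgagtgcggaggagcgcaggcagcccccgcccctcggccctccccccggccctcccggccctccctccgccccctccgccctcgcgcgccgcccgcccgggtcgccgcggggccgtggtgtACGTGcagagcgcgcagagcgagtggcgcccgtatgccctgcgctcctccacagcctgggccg
ARNT: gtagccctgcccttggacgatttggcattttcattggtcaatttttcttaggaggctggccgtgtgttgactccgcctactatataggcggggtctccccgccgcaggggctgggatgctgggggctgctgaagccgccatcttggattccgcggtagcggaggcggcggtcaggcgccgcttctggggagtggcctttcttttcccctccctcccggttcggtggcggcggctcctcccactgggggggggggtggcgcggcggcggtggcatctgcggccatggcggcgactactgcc
HIF1A: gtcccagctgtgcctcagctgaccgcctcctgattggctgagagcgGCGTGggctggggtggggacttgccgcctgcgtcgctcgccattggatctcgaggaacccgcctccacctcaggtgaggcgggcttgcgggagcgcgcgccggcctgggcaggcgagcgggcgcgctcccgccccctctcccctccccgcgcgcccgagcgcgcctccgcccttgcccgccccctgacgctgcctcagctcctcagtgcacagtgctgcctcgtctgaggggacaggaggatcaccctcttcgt
The EGLN1 window held 1 match, an ACGTG whose first base lies 13 bases before the start. The ARNT window held 0, and the HIF1A window held 1 GCGTG, 204 bases before the start. A second HIF1A window in the table held 0. Windows were found for 8 of the 10 genes, 12 in all, of which 5 windows of 5 genes held a match: HIF1A, EPAS1, HIF3A, EGLN1 and EGLN2. The EGLN2 pair is 1 palindromic site read on both strands, CACGTG, 49 bases before the start. Among all 35116 windows 48.4% held either core, 21.4% ACGTG and 36.5% GCGTG. These cores are common, so a match describes the letters of a window and not a site of binding. No match says only that the letters are not in that window.

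HIF1A, the broadly expressed alpha subunit gene, gave values in both conditions that differed by less than the spread between arrays. Its probe set 200989_at read 2814, 2821 and 2804 in the hypoxia arrays and 2835, 2859 and 2747 in the normoxia arrays. All 3 hypoxia values lay within the range of the normoxia values. The log2 change was -0.00013 with a 95% interval of -0.16 to 0.15 (limma adjusted p = 1). EPAS1 encodes the HIF-2 alpha subunit, which shares most but not all targets with HIF-1 alpha. Its probe set 200878_at read 283, 257 and 264 in hypoxia and 230.3, 234 and 240.2 in normoxia. Every hypoxia array was higher, but the difference was small (log2 change 0.18, 95% interval 0.0040 to 0.35, limma adjusted p = 0.121). It passed at an adjusted p of 0.0380 when the dimmer probe sets were left out of the adjustment. The other EPAS1 probe sets, 200879_s_at and 241055_at, were near the bottom of the scale, at 1.26 to 26.9 in hypoxia and 1 to 15.0 in normoxia.

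HIF3A encodes an alpha subunit with several splice forms, some of which restrain the other HIFs, and it was dim throughout. Its 7 probe sets lay below the median of every array, between 1 and 41.9. The one of highest mean intensity, 222123_s_at, read 25.6, 31.8 and 38.5 in hypoxia and 27.0, 41.9 and 31.0 in normoxia, so the groups overlapped. The changes of the 7 ranged from -0.12 to 0.23, with adjusted p-values of 0.551 to 0.897 in limma. No level of HIF3A in either condition can be given at these intensities.

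ARNT encodes the HIF beta subunit, the common partner of all alpha subunits and of the dioxin receptor AHR, and is described in textbooks as little affected by oxygen. Here 4 of its probe sets rose and no probe set fell. Probe set 218221_at, the brightest, read 415, 436 and 412 in hypoxia and 283, 255 and 263 in normoxia. The lowest hypoxia array was well above the highest normoxia array (log2 change 0.63, 95% interval 0.45 to 0.81, limma adjusted p = 0.00129). Probe set 230619_at gave the largest ARNT change, with 209.6, 222 and 206 in hypoxia and 75.4, 77.1 and 74.4 in normoxia. Its arrays were tightly grouped within each condition (log2 change 1.32, 95% interval 1.16 to 1.48, limma adjusted p = 8.67e-05).

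Probe set 231016_s_at of ARNT read 119, 133 and 118 in hypoxia and 74.1, 64.5 and 67.0 in normoxia (log2 change 0.72, limma adjusted p = 0.00120). The dim probe set 233724_at read 47.9, 35.4 and 24.8 in hypoxia and 6.49, 18.4 and 10.4 in normoxia. It passed with a change of 0.91 in log2 (limma adjusted p = 0.0233), but lay below every array median, and its call was lost in 4 of the 6 repeats that left out 1 array. The other 3 probe sets, 210828_s_at, 218222_x_at and 233714_at, were at log2 changes of 0.20, 0.27 and 0.20 with overlapping groups (limma adjusted p = 0.282 to 0.455). The direction was upward in all 7, and the sizes were not the same: the interval of 230619_at did not overlap that of 218221_at. With the mean of all 7 probe sets ARNT changed by 0.60 (limma adjusted p = 0.00133). ARNT2, a paralogue used mainly in nerve cells, was read by 1 probe set, 202986_at, at 9.48, 10.2 and 12.8 in hypoxia and 17.9, 9.50 and 11.4 in normoxia. It was below the median of every array, and the groups overlapped (limma adjusted p = 0.628).

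**Figure D2:**
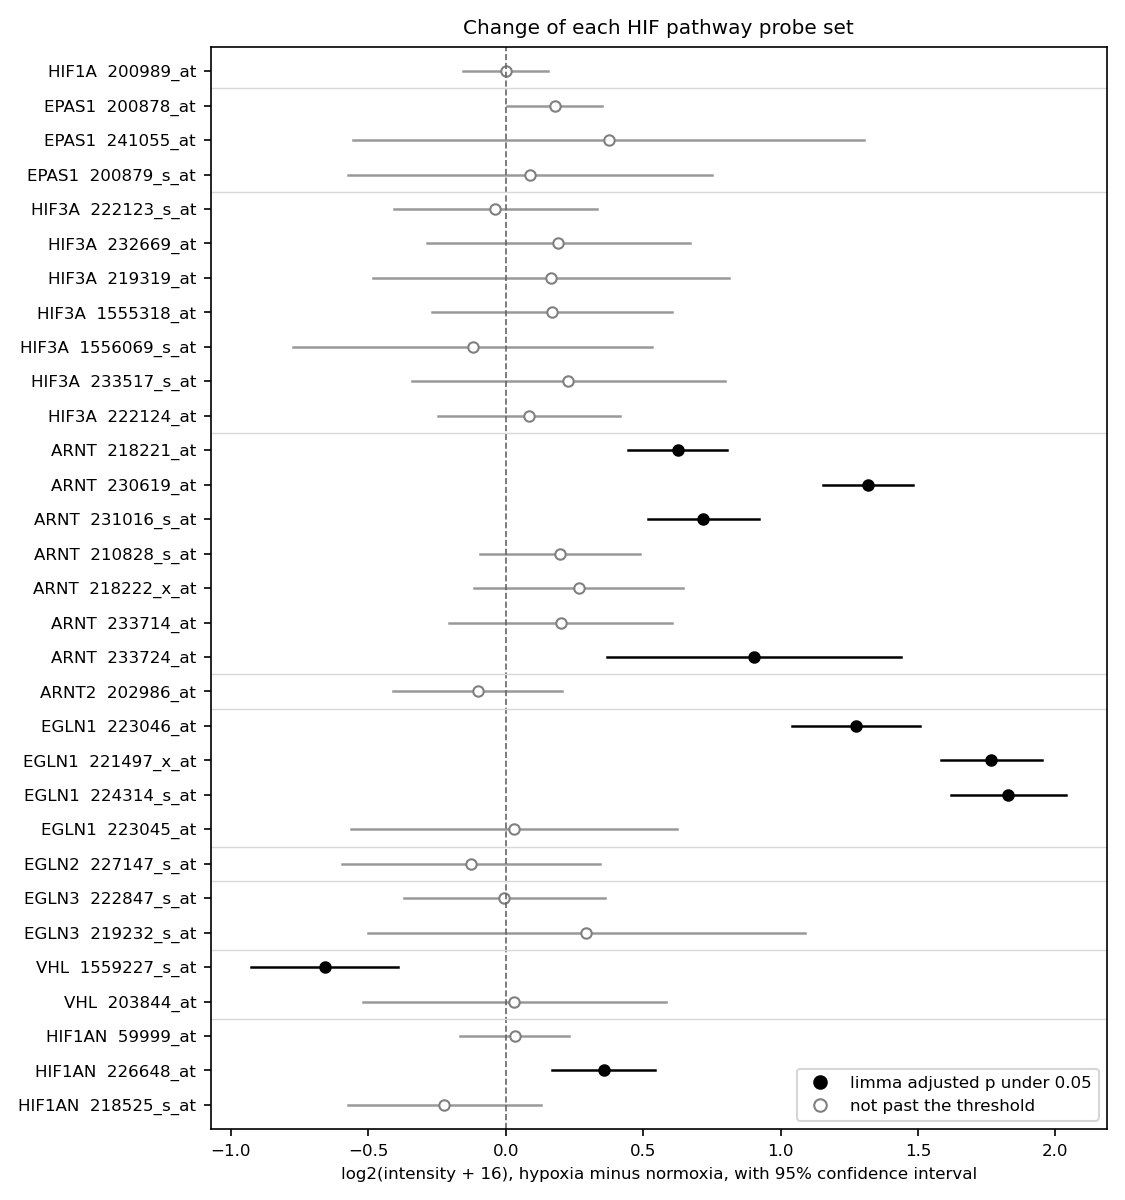
Change of each probe set in log2(intensity + 16), hypoxia minus normoxia, with its 95% interval from limma. Filled points passed an adjusted p of 0.05. EGLN1 lies farthest to the right with 3 probe sets at 1.27 to 1.83, ARNT has 4 filled points at 0.63 to 1.32, and 1 VHL probe set lies to the left at -0.66.

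EGLN1 encodes PHD2, the prolyl hydroxylase that carries most of the oxygen-dependent control of HIF-1 alpha in most cells. Probe set 223046_at, the brightest, read 3974, 3634 and 3546 in hypoxia and 1690.0, 1479.8 and 1419.9 in normoxia. Every hypoxia array had more than 2 times the intensity of every normoxia array, and the log2 change was 1.27 (95% interval 1.04 to 1.51, limma adjusted p = 0.000248). Probe set 221497_x_at read 957, 916 and 921 in hypoxia and 279.7, 262 and 246 in normoxia (log2 change 1.77, 95% interval 1.58 to 1.95, limma adjusted p = 6.16e-05). Probe set 224314_s_at read 453, 537 and 495 in hypoxia and 125, 133 and 125 in normoxia (log2 change 1.83, 95% interval 1.62 to 2.04, limma adjusted p = 7.16e-05). The change was smaller in the brightest probe set, whose interval did not overlap those of the other risen ones. The fourth, 223045_at, read 3.26, 20.6 and 6.23 in hypoxia and 7.30, 7.36 and 11.1 in normoxia, below every array median, and is not informative. The ending of 221497_x_at marks probes that may also bind other transcripts.

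The rise of EGLN1 was large for these arrays. Among all probe sets, 0.569% had a larger upward change than 224314_s_at, 0.656% a larger one than 221497_x_at and 1.91% a larger one than 223046_at. Among probe sets of like brightness, in a log2 bin of 0.5, the shares were 1.51% of 2378, 2.07% of 2029 and 2.03% of 1279. For ARNT probe sets 230619_at and 218221_at, 4.16% of 3026 and 17.9% of 2378 probe sets of like brightness had a larger upward change. The fall of VHL was exceeded by 20.7% of 2202 and the rise of HIF1AN by 29.6% of 2378.

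**Figure D3:**
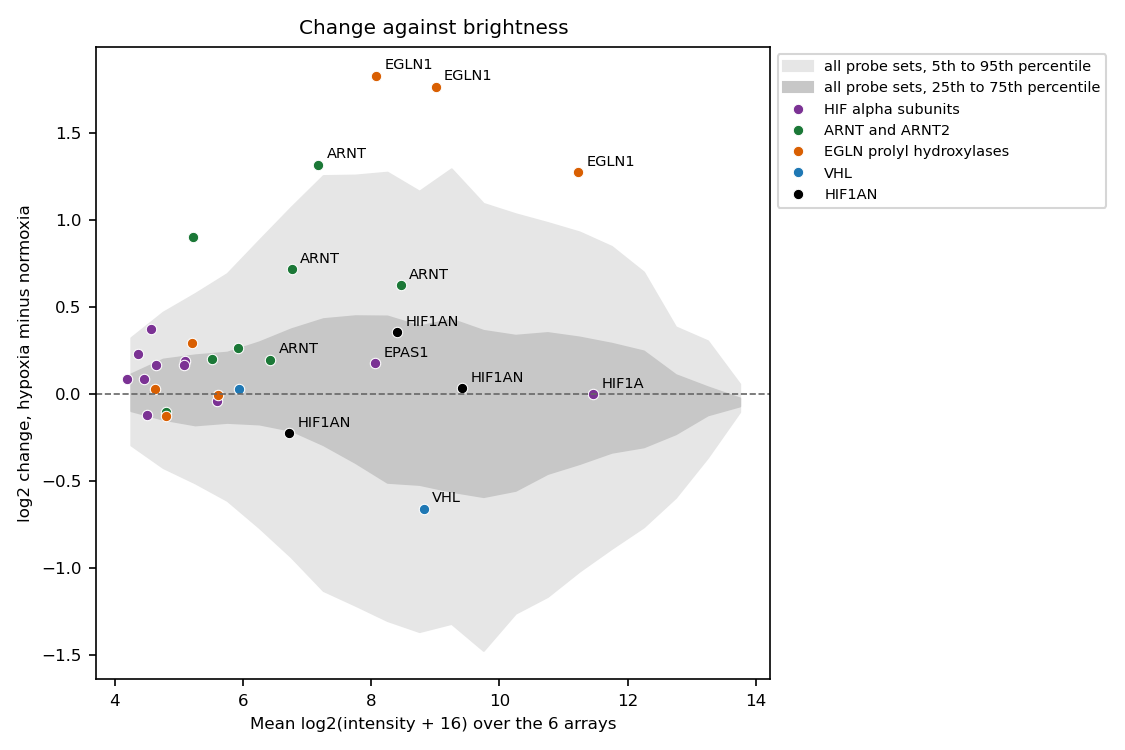
Change of each probe set against its mean log2(intensity + 16) over the 6 arrays, coloured by role, over the percentiles of all probe sets of like brightness in grey. The 3 brighter EGLN1 probe sets lie above the 95th percentile, HIF1A lies at 0 in the middle of the grey, and VHL at -0.66 lies between the 5th and the 25th percentile.

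EGLN2 and EGLN3, the other prolyl hydroxylase genes, gave no usable signal in the probe sets kept. The 2 EGLN2 probe sets left out for their further symbols were not read. EGLN2, which encodes PHD1, was read by 227147_s_at at 6.22, 12.4 and 14.3 in hypoxia and 6.81, 16.3 and 17.8 in normoxia. The groups overlapped and the values were below every array median (log2 change -0.13, limma adjusted p = 0.699). EGLN3 encodes PHD3, a strongly hypoxia-induced gene in many cell types. Its probe set 219232_s_at read 8.61, 29.3 and 45.2 in hypoxia and 17.9, 20.1 and 14.4 in normoxia. The hypoxia arrays lay on either side of the normoxia arrays, with the widest spread within hypoxia of any EGLN3 value (log2 change 0.29, 95% interval -0.50 to 1.09, limma adjusted p = 0.587). Without hypoxia replicate 0 this change was 0.66 and passed (limma adjusted p = 0.0365), so 1 array decided the call. Probe set 222847_s_at of EGLN3 read 37.1, 26.4 and 35.5 in hypoxia and 36.9, 24.7 and 38.4 in normoxia, with a log2 change of -0.0050. At these intensities no change of EGLN2 or EGLN3 was detectable, which does not show that their transcripts were absent or stable.

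VHL encodes the substrate receptor of the ubiquitin ligase that removes HIF alpha. Its probe set 1559227_s_at read 382, 309.7 and 344 in hypoxia and 603, 554 and 505 in normoxia. Every hypoxia array was lower than every normoxia array (log2 change -0.66, 95% interval -0.93 to -0.39, limma adjusted p = 0.00520). The other, 203844_at, read 60.1, 35.2 and 45.1 in hypoxia and 58.4, 49.6 and 29.7 in normoxia, at or below about the array medians and with overlapping groups (log2 change 0.032, limma adjusted p = 0.945). With the mean of both probe sets the VHL call was lost (log2 change -0.31, limma adjusted p = 0.198).

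HIF1AN encodes FIH, which switches off the transactivation domain of HIF alpha in oxygen. The brightest of its probe sets, 59999_at, read 707, 629 and 702 in hypoxia and 640.2, 651 and 699 in normoxia. These groups overlapped, and the log2 change of 0.033 had a 95% interval of -0.17 to 0.23 (limma adjusted p = 0.823). Probe set 226648_at read 357, 395 and 355 in hypoxia and 296, 274 and 284 in normoxia. It passed (log2 change 0.36, limma adjusted p = 0.0150), with adjusted p-values of 0.0564 without normoxia replicate 1 and 0.0527 without normoxia replicate 2. Probe set 218525_s_at read 63.1, 94.7 and 90.2 in hypoxia and 104, 99.7 and 91.0 in normoxia, with overlapping groups and a log2 change of -0.22. The 3 probe sets thus gave values of both signs, and their mean did not pass (log2 change 0.055, limma adjusted p = 0.593).

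Changes were also compared between genes within each array, by the brightest probe set of each, as differences of log2(intensity + 16), of which only the shift between conditions is read. For EGLN1 minus VHL these differences were 3.32, 3.49 and 3.31 in hypoxia and 1.46, 1.39 and 1.46 in normoxia, so EGLN1 changed by 1.93 more than VHL. For EGLN1 minus EGLN2 the difference of changes was 1.40, with a dim EGLN2 probe set. For ARNT minus HIF1A the differences were -2.72, -2.65 and -2.72 in hypoxia and -3.25, -3.41 and -3.31 in normoxia, a gap in change of 0.63. ARNT changed by 0.73 more than the dim ARNT2, and EPAS1 by 0.18 more than HIF1A. In each of these 5 pairs the groups did not overlap. The exact two-sided permutation test over arrays gave p = 0.1 for every pair (0.1 after Benjamini-Hochberg adjustment over the 5), the smallest value that 3 against 3 arrays allow.

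For the genes whose brightest probe set passed, the probe sets most alike over the 6 arrays were listed by Pearson correlation of log2 values. For EGLN1 they were those of TMEM248 (log2 change 0.44), LOC100996756 (2.38) and PLOD2 (1.52), the last a collagen lysyl hydroxylase gene. For ARNT they were those of MARK4 (1.47), MALSU1 (1.21) and ZNF654 (1.12), and for VHL those of FAM200A (-0.55), PMPCB (-0.33) and JADE1 (-0.25). The r values were 0.9973 to 0.9997, but 1096 of 41018 probe sets compared had an r above 0.99 with EGLN1, 824 of 41015 with ARNT and 43 of 41020 with VHL. Of those, 1091, 818 and 40 passed the threshold in the direction of EGLN1, of ARNT and of VHL, in that order.

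Other genes of the pathway were read from 6 lists, in which each probe set was counted on its own. Each list's share past the threshold is read against 30.7% of all probe sets and 52.0% of those at or above the median brightness. The partners of VHL in its ubiquitin ligase (ELOB, ELOC, CUL2 and RBX1) had 7 probe sets: 3 fell, 0 rose and 4 missed the threshold, with a median change of -0.42. All 7 were among the brighter probe sets, and 42.9% passed, against 52.0% of all brighter probe sets in either direction. The 3 calls were all falls, and falls made up 26.3% of all brighter probe sets. CUL2, the cullin scaffold, fell in probe set 203078_at, which read 174, 214 and 199 in hypoxia and 492, 456 and 456 in normoxia (log2 change -1.20, limma adjusted p = 0.000305). Its brighter probe set 203079_s_at was at 1673, 2094 and 2084 in hypoxia and 1757, 2087 and 2096 in normoxia, a log2 change of -0.024, so the probe sets of CUL2 disagreed. ELOC, an adaptor of the ligase, fell in both of its probe sets, by 0.44 in 202824_s_at (limma adjusted p = 0.00303) and by 0.63 in 202823_at.

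Of 33 probe sets of 13 genes that act on the stability of HIF alpha or of the hydroxylases, 8 rose, 6 fell and 19 did not pass (median 0.045). That is 42.4%, and 12 of the 24 brighter ones passed, close to the share over all brighter probe sets. HSP90AA1, a chaperone that HIF-1 alpha binds, fell in 4 of 4 probe sets; 211969_at averaged 3802 ± 59.2 in hypoxia and 8097 ± 178 in normoxia (SD, n = 3 each; log2 change -1.09, limma adjusted p = 0.000123). LIMD1, a scaffold that brings PHD2 and VHL together, rose in 4 of 5, with 5613 ± 174 in hypoxia and 3353 ± 221 in normoxia for 222762_x_at (log2 change 0.74, limma adjusted p = 0.000849). The ending of 222762_x_at and of the risen 234687_x_at marks probes that may also bind other transcripts. The risen 222353_at lay below every array median, while 218850_s_at rose by 0.92 (limma adjusted p = 0.00660). USP33, a deubiquitinase that VHL binds, rose by 1.40 in 214843_s_at (limma adjusted p = 0.000376), while its brighter probe set 212513_s_at rose by 0.47 and 217441_at did not pass (0.20). SIAH2, a ligase that degrades prolyl hydroxylases, was at 951 ± 237 in hypoxia and 982 ± 118 in normoxia and did not pass; it was named after its value was seen.

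Of 25 probe sets of 9 coactivators and CBP/p300 competitors, 9 rose, 0 fell and 16 did not pass (median 0.33). That is 36.0%, and 9 of the 18 brighter ones passed, close to the share over all brighter probe sets in either direction. All 9 were rises, and rises made up 25.7% of all brighter probe sets. The 9 belonged to 5 genes. CREBBP (202160_at, 0.46), EP300 (213579_s_at, 0.55) and CDK8 (204831_at, 0.40), which encode CBP, p300 and a kinase of the Mediator complex, had limma adjusted p-values of 0.00658, 0.00720 and 0.00732. Of these genes, CREBBP passed in 1 of 4 probe sets, EP300 in 1 of 2 and CDK8 in 2 of 3. CITED2, a HIF target that competes with HIF for p300, did not pass in its 3 probe sets, at log2 changes of 0.040 to 0.19; it was named after its values were seen.

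Of 33 probe sets of 10 other genes of the same transcription factor family as the HIF subunits, called bHLH-PAS, 1 rose, 2 fell and 30 did not pass (median -0.043). That is 9.09%, and 23.1% of the brighter ones. AHR, which shares ARNT as its partner, fell to 82.2, 77.5 and 88.0 in hypoxia, against 218, 181 and 173 in normoxia (log2 change -1.06, limma adjusted p = 0.000664). The clock factor BMAL1 rose by 0.80 in 209824_s_at and BMAL2 fell by 1.47 in 223586_at (limma adjusted p = 0.000568 and 0.000175), while the brighter probe sets of BMAL2 were at -0.11 and -0.16. The other BMAL1 probe set, 210971_s_at, had overlapping groups and did not pass (log2 change 0.48, limma adjusted p = 0.0870). Of 12 probe sets of 4 other oxygen-sensing dioxygenases, 3 rose, 2 fell and 7 did not pass (median -0.014). That is 41.7%, and 45.5% of the brighter ones. The histone demethylase gene KDM5A rose by 0.70 in 202040_s_at, 1 of its 5 probe sets, and the others were at log2 changes of -0.35 to 0.28. KDM6A, another histone demethylase gene, rose in 2 of 4 probe sets, by 0.59 in 203992_s_at and by 0.26 in 203991_s_at. ADO, a thiol dioxygenase that senses oxygen through the N-degron pathway, fell in both probe sets, by 0.49 in 212500_at (limma adjusted p = 0.00303).

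The last list, 12 known targets of HIF outside the 10 genes, had 29 probe sets: 24 rose, 0 fell and 5 missed the threshold. That is 82.8% higher, against 15.5% of all probe sets, and all 24 brighter ones rose, against 25.7% of all brighter probe sets. Their median change was 0.93. HILPDA (1554452_a_at) was at 5385 ± 118 in hypoxia and 363 ± 9.87 in normoxia (log2 change 3.83), and BHLHE40 (201169_s_at) and P4HA1 (207543_s_at) rose by 3.66 and 2.39 (limma adjusted p at most 5.27e-05). At least 1 probe set rose for 11 of the 12 genes. The exception, named after its values were seen, was BNIP3, whose probe sets were at 1.68 to 15.2 in hypoxia and 1.81 to 17.2 in normoxia. The targets had risen on the same arrays on which HIF1A stayed within its normoxia range. This list was chosen with earlier results of these data known. Its counts therefore describe the listed genes and do not test HIF activity.

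**Figure D4:**
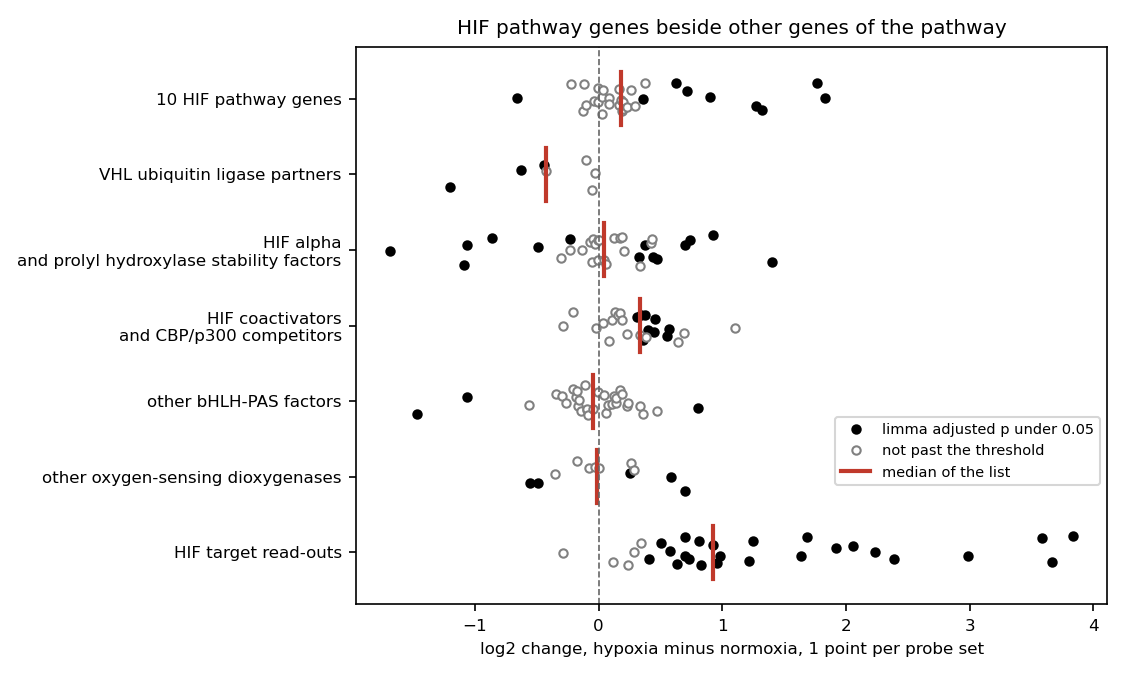
Change in log2(intensity + 16), hypoxia minus normoxia, of every probe set of the 10 genes and of the 6 other lists, with filled points past an adjusted p of 0.05 and a red bar at each list's median. The HIF targets have the highest median, 0.93, the partners of VHL the lowest, -0.42, and the 10 genes lie between them at 0.18.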

How the data were processed

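RNA of MM1S cells was hybridised to 6 single-colour arrays, 3 of hypoxia and 3 of normoxia. Per the labels' protocols, biotin-labelled cRNA was made from total RNA by in vitro transcription. The values deposited by the authors are intensities on a linear scale, with the authors' background correction, probe summary and scaling not given in the sources used here. A single gene symbol was listed for 41091 probe sets, several for 1801 and none here for 11721. Symbols were brought up to date through a RefSeq gene table, which held 41037 of the single-symbol Entrez identifiers.

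Intensities were turned into log2(intensity + 16), a scale that understates the change of dim genes, with no filter. All 54613 probe sets were fitted in R 4.3.3 with limma 3.58.1 (lmFit, eBayes), hypoxia against normoxia, two-sided, with no covariates; p-values were adjusted by Benjamini-Hochberg over all of them, with a threshold of 0.05 and 95% confidence intervals. The procedure was tested on simulated data. Between any 2 arrays 1.07% to 1.23% of values were identical, so no array repeats another; the number of arrays limits the precision. Array numbers were not taken as pairs. The members and lists were chosen with earlier results of these data known. The text names all probe sets of the 10 genes, up to 3 genes of each other list with the smallest adjusted p among those past the threshold, and the 3 probe sets most alike to each gene whose brightest probe set passed. RACK1 and HBA1 are not analysed here, and some further markers are not reported here. Alternatives were another pseudocount, a filter on dim probe sets, quantile or median scaling, an intensity trend, 1 probe set or the mean per gene, a replicate block, and arrays left out.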

Additional observations from a re-analysis of the deposited data

How the results depend on the processing

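With 1 probe set per gene, 3335 genes rose and 4068 fell, and with the mean over its probe sets 3030 and 3790, against 8481 and 8289 probe sets in the report; the tests then run over fewer features. Of the 10 genes, 2 rose (EGLN1 and ARNT) and 1 fell with 1 probe set each, and 2 rose and 0 fell with means, where VHL was lost. For the other lists the counts higher and lower with 1 probe set per gene were 0 and 1 for the VHL partners, 4 and 3 for stability factors, 5 and 0 for coactivators, 2 and 1 for dioxygenases and 11 and 0 for HIF targets; with means they were 3 and 3 for stability factors, 4 and 0 for coactivators, 1 and 1 for dioxygenases and 11 and 0 for HIF targets. For the bHLH-PAS factors, 4 fell with a pseudocount of 64 and with median centring, 5 fell and 2 rose without dim probe sets, and 2 rose with the replicate block.

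The replicate block changed 1 call among the 31 probe sets, that of ARNT 233724_at (0.91, limma adjusted p = 0.0591). Deviations from the group means of same-numbered arrays correlated at 0.21, 0.0082 and 0.19 over all probe sets, and at 0.45, 0.11 and 0.46 over brighter ones, a hint from the data. Hypoxia replicate 1 correlated better with normoxia replicate 2, at 0.093 over all probe sets and 0.19 over brighter ones, than with its own number. Leaving out both arrays numbered 0, an alternative chosen after seeing the data, lost ARNT 233724_at (0.60, limma adjusted p = 0.116) and gave 1 fall among the coactivators. Leaving out 1 array at a time gave 6 to 8 rises and 1 fall among the 31 probe sets, 6752 to 8276 rises and 6824 to 7836 falls over all probe sets, and 6 to 12 rises among coactivators, 1 to 2 rises and 2 to 3 falls among bHLH-PAS factors and 1 to 2 falls among dioxygenases. The calls lost were ARNT 233724_at and HIF1AN 226648_at, and the call gained was EGLN3 219232_s_at. The differences of change between genes kept their sign in all alternatives run, and those of EGLN1 minus VHL were 1.88 to 1.97 without 1 array.

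Signs turned for 13 probe sets that never passed with either sign. With median centring EGLN1 223045_at was at -0.035, VHL 203844_at at -0.034 and HIF1AN 59999_at at -0.032. With a pseudocount of 1 EGLN1 223045_at was at -0.11, and with quantile normalization HIF1A was at 0.034 and VHL 203844_at at -0.013. Without both arrays numbered 0, HIF1A was at 0.00525, EPAS1 200879_s_at at -0.33, HIF3A 233517_s_at at -0.11, ARNT2 at 0.054 and HIF1AN 59999_at at -0.020. Without 1 array the ranges were -0.017 to 0.011 for HIF1A, -0.17 to 0.29 for EPAS1 200879_s_at, -0.35 to 0.096 for HIF3A 1556069_s_at, -0.11 to 0.44 for HIF3A 219319_at, -0.13 to 0.085 for HIF3A 222123_s_at, -0.060 to 0.16 for HIF3A 222124_at, -0.038 to 0.38 for HIF3A 233517_s_at, -0.19 to 0.018 for ARNT2, -0.24 to 0.22 for EGLN1 223045_at, -0.30 to 0.0060 for EGLN2, -0.14 to 0.096 for EGLN3 222847_s_at and -0.17 to 0.18 for VHL 203844_at. Except as given above, the cause was not tested. Signal near background limits what can be said of HIF3A, ARNT2, EGLN2 and EGLN3.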
